A study of Mus musculus with 3 samples.

Results

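Lcn2-high epithelium was a set of epithelial cells of the mouse gallbladder that carried a high level of Lcn2, the gene of lipocalin 2, and little Aqp1, the gene of a water channel of the gallbladder lining. It comprised 2536 of 27700 barcodes. A member had at least 300 genes and 3000 UMIs, at most 20% of UMIs on mitochondrial genes, and at least 4000 CPM (counts per 1000000) of Epcam, Krt8, Krt18 and Krt19 together. A member also had 0 UMIs of Ptprc, under 2000 CPM of Col1a2 and Col3a1 together, at least 1000 CPM of Lcn2, under 300 CPM of Aqp1 and under 300 CPM of Isg15, Ifit1 and Ifit3 together. CPM of a cell are its UMIs of a gene over all its UMIs, times 1000000. The cells were chosen by their measured levels of Lcn2, Aqp1 and the other genes of these limits, whose values therefore describe the choice and are no finding.

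Male C57BL/6 mice received nanoplastics by gavage for 3 weeks, nanoplastics for 6 weeks, or vehicle for 6 weeks. Each of these 3 groups was 1 library from 10 gallbladders pooled and digested with trypsin, so no group was replicated. The barcodes carry a library number, 1, 2 or 3, and no source used here ties a number to a group. Exposed and vehicle gallbladders were therefore not compared, and the libraries are unassigned and no replicates of one another. Sets of 3 values below stand for libraries 1, 2 and 3, in that order. Libraries held 72943584, 121349261 and 58172348 UMIs, and members had medians of 27232, 12006 and 16546 UMIs per cell. Pairs of libraries shared 15 to 22 barcode sequences, and 0 of the shared ones were members in both.

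The gallbladder epithelium concentrates bile by taking up sodium, chloride, bicarbonate and water, and it meets bacteria and bile salts at its surface. Epithelia of the gut and airway answer bacteria by secreting antimicrobial proteins, calling neutrophils with chemokines, releasing complement and covering themselves with mucus. Lipocalin 2 and lactoferrin, encoded by Ltf, withhold iron from bacteria, the first by binding the siderophores that bacteria use to collect it. Cxcl5 encodes a chemokine that attracts neutrophils, Reg3g a C-type lectin that kills Gram-positive bacteria, and Tff2 a trefoil peptide that stabilises mucus. In other cells, NF-kB and C/EBP factors act on genes of this kind, Lcn2 among them.

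Start-site sequences are printed for Lcn2, Ltf and Reg3g, 3 of the markers given for these cells. None was available for the other given markers, Cxcl5 and Tff2. That of C3, chosen after its values were seen, is printed because C3 was the most abundant complement gene set apart in these cells. Each runs from 250 bases before to 50 bases after a RefSeq start site (build GRCm38.p6), 5′ to 3′ on the strand of the gene. Capitals mark matches, on either strand, to GGGANNNNCC, a pattern of the NF-kB type, or to TTNNGNAA, a pattern of the C/EBP type. The Lcn2 window is chr2:32387690-32387989 (minus strand), that of Ltf chr9:111019042-111019341 (plus strand), that of Reg3g chr6:78468825-78469124 (minus strand) and that of C3 chr17:57228087-57228386 (minus strand).
Lcn2: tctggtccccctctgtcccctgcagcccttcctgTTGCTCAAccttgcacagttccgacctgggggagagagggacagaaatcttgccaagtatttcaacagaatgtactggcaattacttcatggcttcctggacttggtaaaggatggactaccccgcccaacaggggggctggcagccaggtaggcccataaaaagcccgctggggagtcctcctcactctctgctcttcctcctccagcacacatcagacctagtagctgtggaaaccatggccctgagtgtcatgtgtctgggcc
Ltf: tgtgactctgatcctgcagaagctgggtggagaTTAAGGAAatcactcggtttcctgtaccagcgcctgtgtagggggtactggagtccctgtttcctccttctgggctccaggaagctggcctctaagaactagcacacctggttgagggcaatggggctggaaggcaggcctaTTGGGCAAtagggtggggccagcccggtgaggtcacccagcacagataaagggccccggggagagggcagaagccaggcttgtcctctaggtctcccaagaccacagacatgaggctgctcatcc
Reg3g: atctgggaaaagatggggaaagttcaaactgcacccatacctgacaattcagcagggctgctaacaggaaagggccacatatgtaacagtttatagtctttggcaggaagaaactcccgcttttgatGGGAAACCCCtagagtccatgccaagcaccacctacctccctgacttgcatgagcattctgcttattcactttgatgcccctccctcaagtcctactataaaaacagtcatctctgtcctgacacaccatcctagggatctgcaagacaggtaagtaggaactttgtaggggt
C3: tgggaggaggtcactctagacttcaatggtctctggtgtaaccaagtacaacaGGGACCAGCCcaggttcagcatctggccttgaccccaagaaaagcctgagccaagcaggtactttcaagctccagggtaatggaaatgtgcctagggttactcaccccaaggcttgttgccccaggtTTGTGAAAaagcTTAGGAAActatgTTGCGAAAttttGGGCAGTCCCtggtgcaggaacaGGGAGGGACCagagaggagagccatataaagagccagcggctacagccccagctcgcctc

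Lcn2 held 1 C/EBP-type match, TTGCTCAA at position -216 from the start site, and Ltf held 2 of them. Reg3g held 1 NF-kB-type match, GGGAAACCCC, and C3 held 3 of them, 1 on the opposite strand, beside C/EBP-type matches at 3 positions. Over 32851 start-site windows of the mouse genome, 20.7% held the NF-kB-type pattern and 40.7% the C/EBP-type pattern. Of the 15 genes furthest above Aqp1-high cells, described below, 12 had windows, 16 in all, of which 31.2% and 75% held the patterns in that order. Of the 15 genes furthest below, 12 had 23 windows, of which 21.7% and 43.5% held them. These shares count windows and not genes. In the lower set, the 7 windows of Prss23 supplied most of those with the NF-kB-type pattern. Most Prss23 windows, and all windows of Bglap3 and Epb41l3, lacked the C/EBP-type pattern. By gene, that pattern was in every higher gene with a window except Reg3g, Gabrp and Lmcd1. Of lower genes with a window, all held it except Bglap3, Cyp2f2, Epb41l3 and Slc9a3. The C/EBP-type contrast between the sets was thus smaller by gene than by window. A match describes letters in a window and no binding was measured.

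Of 27700 barcodes, 16241 passed the limits on genes, UMIs and mitochondrial share, and 9211 of these passed the limits on epithelial genes, Ptprc and collagens. These 9211 cells are called gated epithelium. Members made up 30.9% of gated epithelium in library 1 (456 cells; exact binomial 95% interval 28.6% to 33.3%), 29.2% in library 2 (1913 cells; 28.1% to 30.3%) and 14.1% in library 3 (167 cells; 12.2% to 16.2%). The share of library 3 lay below those of libraries 1 and 2 by more than counting error, which is all that these intervals cover. Over all libraries the share was 27.5%, 23.4% without library 2 and 29.5% without library 3.

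Gated epithelium also held the populations used for comparison. Aqp1-high cells had at least 300 CPM of Aqp1 and under 1000 CPM of Lcn2, and intermediate cells were below both limits. Aqp1-high cells made up 30.2%, 39.3% and 59.2% of gated epithelium, and intermediate cells 37.2%, 16.9% and 25.2%. High levels of both genes were found in 119 cells (1.29%). A further 876 cells passed the interferon limit, 845 of them in library 2, and were left out. That limit took the members of library 2 down to 1913, against 2155 before it.

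**Figure D1:**
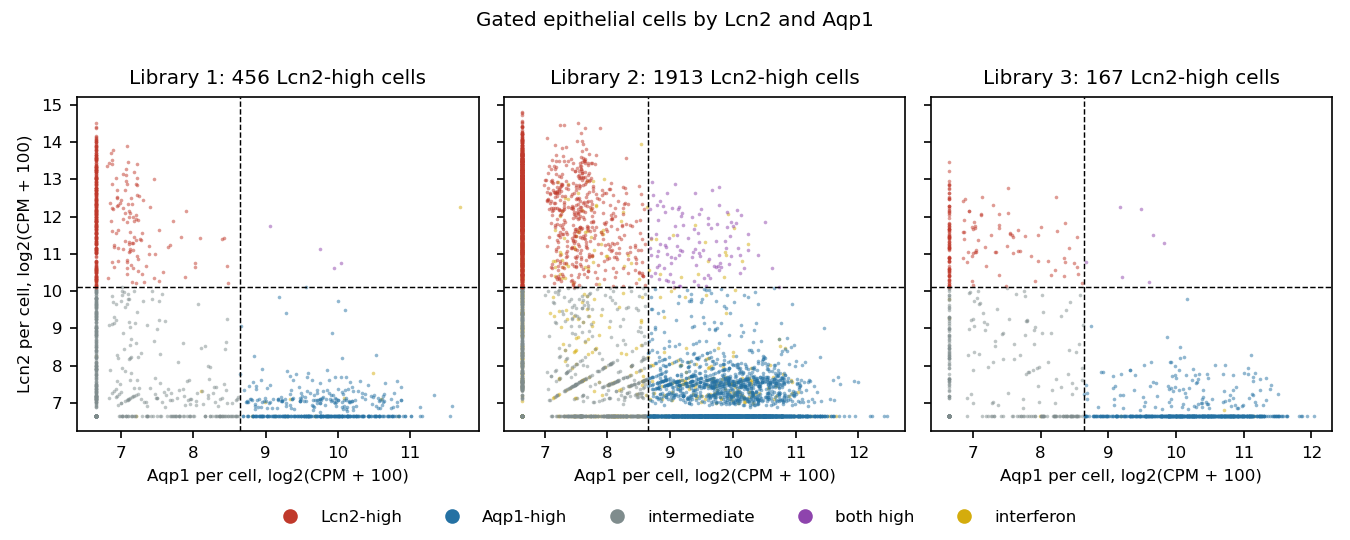
Each point is 1 gated epithelial cell, with Lcn2 against Aqp1 on log2(CPM + 100) axes, one panel per library, coloured by population; dashed lines mark 1000 CPM of Lcn2 and 300 CPM of Aqp1. Of the Lcn2-high cells, 74.5% had 0 Aqp1 UMIs and stack at the left edge, and few cells lie in the upper right, where both genes are high (4, 108 and 7 cells).

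The cutoff of Lcn2 runs through a continuous range of values. Members had median Lcn2 levels of 3998, 4798 and 2480 CPM, and 1 of 2536 had fewer than 5 Lcn2 UMIs. The 54 cells just inside, at 1000 to 1100 CPM, had summed levels of 998 CPM of Ltf, 191 of Cxcl5, 46.1 of Reg3g and 2494 of Tff2. The 62 cells just outside, at 900 to 1000 CPM, had 1025 CPM of Ltf, 431 of Cxcl5, 109.8 of Reg3g and 2310 of Tff2.

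Epithelial markers outside the limits were present in members. Besides Epcam, Krt8, Krt18 and Krt19, which the choice used, Krt7, Cdh1, Cldn3, Cldn7 and Elf3 lay at 234 to 871 CPM in each library. The limits on Ptprc and on collagens act on leukocyte and fibroblast genes, so low levels of these follow in part from the choice. Neutrophils also make lipocalin 2 and lactoferrin. The 12 neutrophil markers summed to between 26.2 and 28.1 CPM in members, against 19.6 to 25.3 in Aqp1-high cells, with Ly6g and Camp at 0 UMIs in members. The 9 macrophage markers summed to 34.8 to 45.8 CPM in members and 25.6 to 39.8 in Aqp1-high cells, led by Cd68. The 9 T cell markers reached at most 11.4 CPM in members and 8.87 in Aqp1-high cells. The 9 tuft cell markers summed to 17.5 to 70.6 CPM in members and 7.03 to 22.2 in Aqp1-high cells, with Dclk1 highest among them in members. The 7 endothelial markers summed to 58.5 to 111.0 CPM in members and 15.4 to 39.1 in Aqp1-high cells. In members most of this was Flt1, a receptor of vascular growth factors, at 99.3, 51.4 and 84.2 CPM. Aqp1-high cells had 5.52, 3.43 and 6.40 CPM of Flt1, and Egfl7 was the highest of the list there. Fibroblast markers summed to 167 to 498 CPM in members and 144 to 453 in Aqp1-high cells, in both highest in library 3. Smooth muscle markers summed to 53.4 to 124 CPM in members and 76.1 to 271 in Aqp1-high cells, and mesothelial markers to 19.2 to 27.8 in members and 11.2 to 65.2 in Aqp1-high cells. B and plasma cell markers summed to 32.3 to 72.3 CPM in members, against 31.9 to 328 in Aqp1-high cells, the highest being library 2. The hepatocyte list was nearly all Ttr, and the acinar list nearly all Ctrb1, described below. The part of these other lineages in the results was not tested.

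The markers given for these cells were Lcn2, Ltf, Cxcl5, Reg3g and Tff2. Lcn2 was used in the choice, so its level in members follows from it. The 4 others were all higher in members than in Aqp1-high cells, and 3 of the 4 were also higher than in intermediate cells. Lcn2 (chromosome 2, 32384633 to 32388252, minus strand, GRCm38 with GENCODE M21) summed to 5470.4, 5676 and 3126 CPM in members, against 35.3, 51.9 and 11.0 in Aqp1-high and 218, 195 and 223 in intermediate cells. Summed levels are UMIs of all cells of a population and library over their total, times 1000000.

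Ltf (chromosome 9, 111019271 to 111042767, plus strand) had 1249.9, 1288 and 1295 CPM in members, 19.5, 29.0 and 9.93 in Aqp1-high cells and 461, 413 and 503 in intermediate cells. The level in members was close to the same in all 3 libraries, with exact Poisson 95% intervals of 1232 to 1268, 1275 to 1302 and 1258 to 1332 CPM. Cxcl5 (chromosome 5, 90759360 to 90761624, plus strand) had 1149.9, 1181 and 344 CPM in members, 10.6, 13.5 and 1.73 in Aqp1-high and 131, 147 and 43.8 in intermediate cells, with library 3 lowest in each population. Reg3g (chromosome 6, 78466269 to 78468872, minus strand) had 361, 203 and 251 CPM in members, 6.34, 9.78 and 4.53 in Aqp1-high and 52.9, 21.2 and 47.8 in intermediate cells. Its close relative Reg3b, chosen after its values were seen, was near the expression minimum, at 14.9, 9.96 and 8.37 CPM in members and 15.1, 4.57 and 6.60 in Aqp1-high cells, and reads shared between the related Reg genes may be split by the counting.

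Tff2 (chromosome 17, 31141049 to 31144282, minus strand) did not set members apart from intermediate cells. It had 1272, 2029 and 1462 CPM in members, 200.4, 332 and 284 in Aqp1-high cells and 1426, 2027 and 2315 in intermediate cells. It was thus 5.15 to 6.35-fold higher in members than in Aqp1-high cells and 0.632 to 1.0 times the intermediate level. Of all Tff2 UMIs in quality-filtered barcodes, members held 39.2%, 40.9% and 18.6%. They held far larger shares of Cxcl5 (79.0%, 78.9% and 60.4%), Reg3g (77.5%, 74.7% and 56.2%) and Ltf (64.8%, 62.9% and 48.6%). Members were 13.8%, 21.6% and 4.08% of those barcodes. Their shares of Lcn2, 87.5%, 81.1% and 66.0%, follow from the choice.

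**Figure D2:**
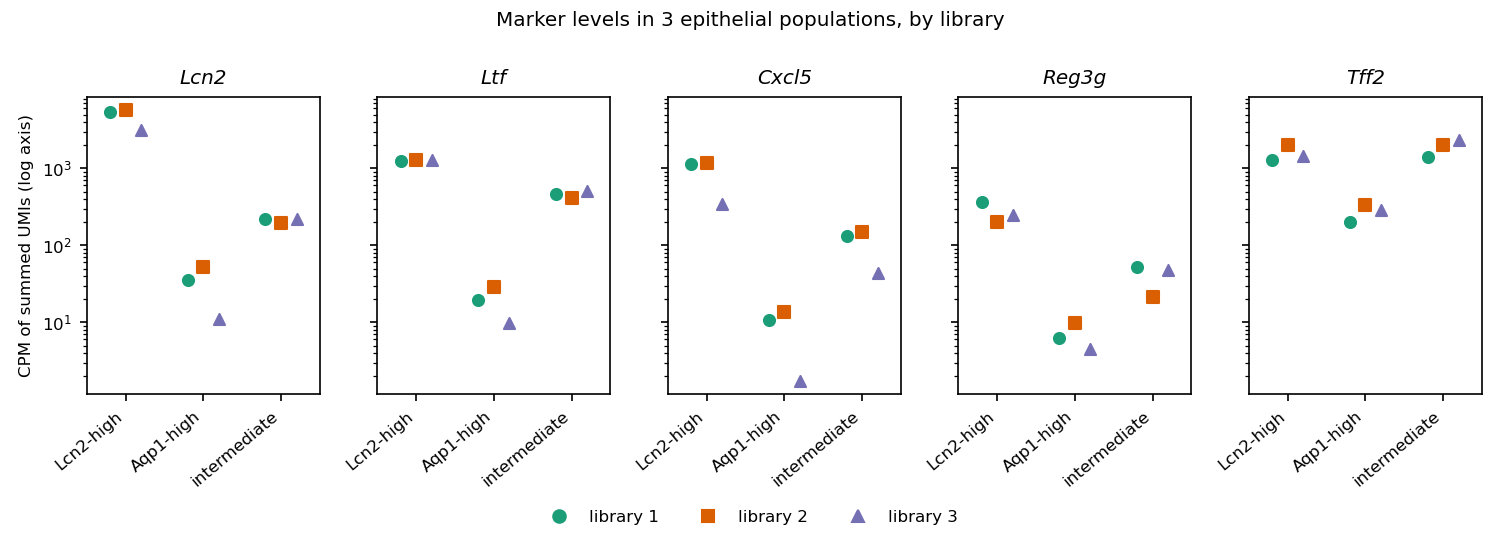
Summed CPM (log axis) of the 5 markers in Lcn2-high, Aqp1-high and intermediate epithelium; each point is 1 library. Ltf, Cxcl5 and Reg3g are highest in Lcn2-high cells in each library, while Tff2 lies at 1272 to 2029 CPM in Lcn2-high and 1426 to 2315 CPM in intermediate cells.

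Single cells differed in which of these genes they held. With every cell thinned to 3000 UMIs, Ltf was found in 82.9%, 89.6% and 92.2% of members, against 4.71%, 5.44% and 2.28% of Aqp1-high cells and 2.31%, 3.06% and 3.69% of collagen-high cells, which should lack it. Without thinning the shares were 96.1%, 97.4% and 99.4% in members, 26.7%, 18.8% and 13.7% in Aqp1-high cells and 8.72%, 5.68% and 5.24% in collagen-high cells, at median depths of 12006 to 27232 UMIs in members, 12824 to 29515 in Aqp1-high and 4342 to 11432 in collagen-high cells. The thinned shares of Aqp1-high and collagen-high cells had overlapping exact binomial intervals in each library, with the Aqp1-high share above the other in libraries 1 and 2 and below it in library 3. The part of free RNA in these shares was not tested. Cxcl5 was found in 64.0%, 66.4% and 46.1% of thinned members, against 2.02%, 2.91% and 0.712% of Aqp1-high and 1.79%, 2.62% and 1.17% of collagen-high cells. Unthinned, Cxcl5 was found in 89.0%, 86.0% and 78.4% of members and 15%, 11.3% and 3.56% of Aqp1-high cells. Reg3g was the rarest, in 34.0%, 25.9% and 25.1% of thinned members (72.4%, 46.4% and 57.5% unthinned), against 1.79%, 1.17% and 1.99% of Aqp1-high cells (10.1%, 4.27% and 5.98% unthinned) and 0.256%, 0.218% and 0.388% of collagen-high cells. Tff2 was found in 70.4%, 88.1% and 79.0% of thinned members (93.2%, 96.9% and 92.8% unthinned), 26%, 36.4% and 37.0% of thinned Aqp1-high cells and 57.5%, 73.5% and 63.5% of thinned intermediate cells.

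In libraries 1 and 2, these genes were found together about as often as their single shares alone would give. Both Cxcl5 and Reg3g were found in 21.5%, 18.5% and 7.78% of thinned members, where the product of their single shares gives 21.8%, 17.2% and 11.6%. All 4 of Ltf, Cxcl5, Reg3g and Tff2 were found in 14.5%, 14.7% and 5.39% of members, and none of them in 1.97%, 0.418% and 0.599%. The cells of a library share depth and free RNA, so these shares describe these libraries and carry no test.

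Against Aqp1-high cells, 7726 genes passed the expression minimum of 10 CPM and 20 UMIs in the higher population of each library. Of these, 321 (4.15%) were at least 2-fold higher in members in each of the 3 libraries and 231 (2.99%) at least 2-fold lower. The cells were chosen by their own levels, so these folds within libraries are a description with no test, and a gene is called here by this rule of size alone. The median gene differed by 0.13, 0.12 and -0.01 on the log2 scale. Counts of called genes against Aqp1-high cells below are over the listed genes that passed the minimum. They are to be read against 4.15% and 2.99%. The lists were chosen with earlier results of these data known. They hold the given markers Ltf and Reg3g (antimicrobial), Cxcl5 (chemokines) and Tff2 (mucus), so their counts describe and test nothing.

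Genes were ranked at 50 CPM or more in the higher population of each library, so Nos2, described below, was not ranked. The 15 ranked genes furthest above Aqp1-high cells were Cxcl5, Ltf, Muc13, Lmcd1, Gabrp, Cp, Reg3g, Slc28a3, Ces1g, C4b, Chil4, Plet1, Il1rn, Ces1f and C3. Muc13, which encodes a membrane mucin, had 88.4, 102 and 88.7 CPM in members and 1.26, 2.63 and 0.533 in Aqp1-high cells. Plet1, a surface protein of placenta and of progenitor cells in several mouse epithelia, was abundant at 1421, 1649.6 and 1426 CPM in members, against 79.5, 104 and 47.7 in Aqp1-high cells. Il1rn, the secreted antagonist of the interleukin 1 receptor, had 517, 501 and 286 CPM in members and 22.4, 31.9 and 12.5 in Aqp1-high cells. Gabrp, a subunit of a GABA-gated chloride channel, had 516, 515 and 806 CPM in members and 15.1, 22.8 and 26.5 in Aqp1-high cells. The carboxylesterases Ces1g, Ces1f and Ces1d lay together on chromosome 8 and were 13.0 to 34.0-fold higher in members. They are near copies of one another, so the counting may share reads among them. Chil4, a chitinase-like secreted protein with a close relative in Chil3, had 5243, 1109 and 1063 CPM in members, 311, 58.4 and 11.3 in Aqp1-high cells and 6635, 1089.8 and 1468 in intermediate cells.

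**Figure D3:**
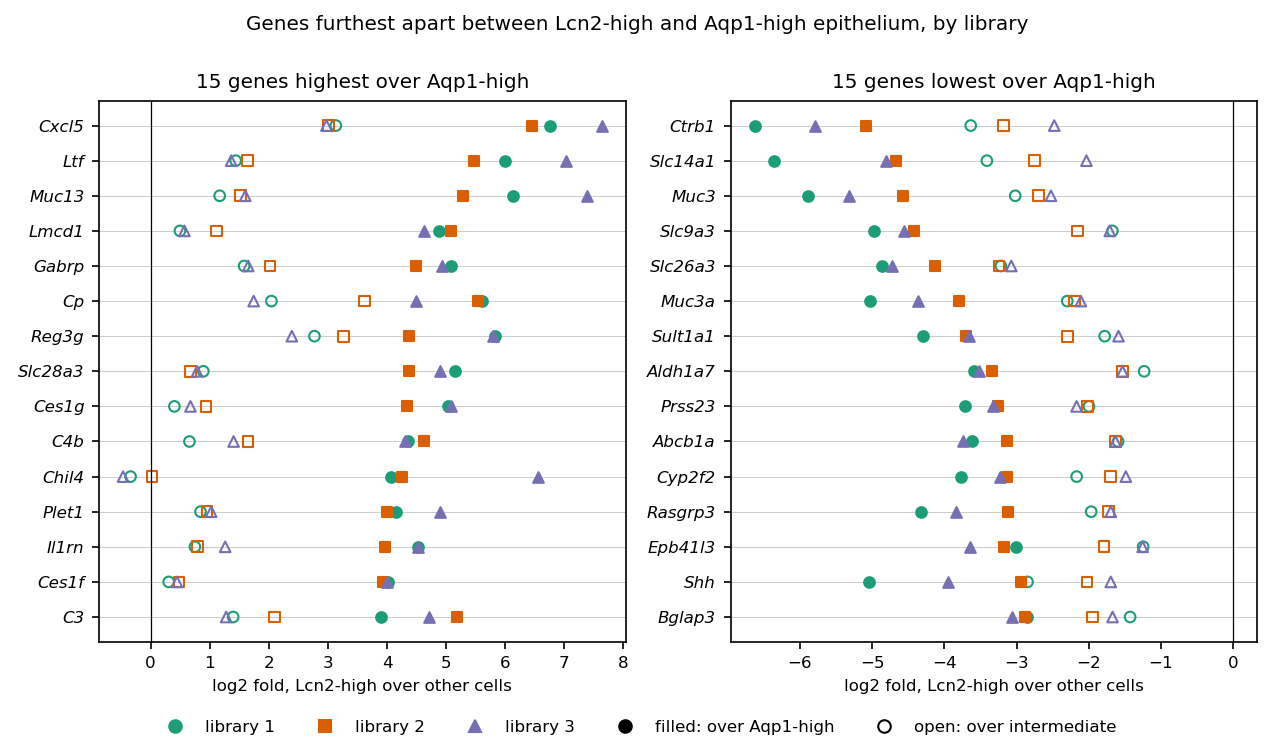
Log2 fold of summed CPM in Lcn2-high over Aqp1-high cells (filled) and over intermediate cells (open), with each symbol 1 library. Shown are the 15 genes furthest above and the 15 furthest below Aqp1-high cells, of those at 50 CPM in the higher population. Folds over intermediate cells are smaller than those over Aqp1-high cells for each of these genes in each library, and Chil4 is at most 1.02-fold above intermediate cells.

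Among secreted antimicrobial proteins, 24 of 26 listed genes were in the matrix and 7 besides Lcn2 passed the minimum, of which 3 were higher in members (Ltf, Reg3g and Pglyrp1) and 0 lower. The median log2 fold of the 7 was 1.04, against 0.08 over all genes. Pglyrp1, a peptidoglycan-binding protein that kills bacteria, had 1219, 1315 and 836 CPM in members and 223, 261 and 192 in Aqp1-high cells. Dmbt1, a scavenger protein that binds bacteria, was the most abundant of the list at 12257, 11392 and 14491 CPM in members and 6268, 5986 and 10624 in Aqp1-high cells, short of the 2-fold rule. Wfdc2 likewise had 2094, 3285 and 2438 CPM in members and 1056, 1499.6 and 1214 in Aqp1-high cells, with library 1 at 1.98-fold.

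Of chemokines and growth factors for leukocytes, 10 of 27 passed the minimum, 5 were higher (Cxcl5, Cxcl1, Cxcl17, Ccl20 and Ccl28), 1 was lower (Il18), and the median log2 fold was 2.41. Ccl20, which attracts cells bearing Ccr6, had 195, 191 and 58.6 CPM in members and 9.48, 12.4 and 7.07 in Aqp1-high cells. Cxcl1, a neutrophil chemokine, had 45.9, 41.2 and 21.5 CPM in members and 4.83, 2.87 and 6.00 in Aqp1-high cells, and Ccl28, which attracts antibody-secreting cells to mucosae, 60.7, 71.9 and 91.8 in members and 10.4, 13.1 and 22 in Aqp1-high cells. Cxcl2 was 1.76-fold higher in library 3, where it had 39.1 CPM in members, and was not called. Il18, an epithelial cytokine of the interleukin 1 family, went the other way, with 18.2, 23.2 and 20.1 CPM in members and 139.9, 129 and 121 in Aqp1-high cells.

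NF-kB and STAT3 response genes had 20 of 22 above the minimum, with 4 higher (Tnfaip2, Tnip3, Birc3 and Icam1), 0 lower and a median log2 fold of 0.70. Tnfaip2, induced by tumour necrosis factor, had 278, 232 and 168 CPM in members and 6.91, 9.76 and 15.3 in Aqp1-high cells. Icam1, the adhesion molecule to which leukocyte integrins bind, had 107, 114 and 141 CPM in members and 35.0, 38.5 and 25.3 in Aqp1-high cells. Nfkbiz and Cebpb, whose products act on Lcn2 in other cells, were not among the 4. Cebpb had 412, 520.4 and 503 CPM in members and 744, 784 and 410.3 in Aqp1-high cells, and Nfkbiz, chosen after its values were seen, 149.9, 95.8 and 232 in members and 172, 109 and 253 in Aqp1-high cells.

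Receptors for interleukins 17, 22 and 1 and for tumour necrosis factor had 12 of 19 above the minimum, of which 1, Tnfrsf1b, was higher (37.5, 43.2 and 31.0 CPM in members, 10.2, 8.34 and 9.13 in Aqp1-high cells), 0 were lower and the median log2 fold was 0.37. Il22ra1, the epithelial subunit of the interleukin 22 receptor and chosen after its values were seen, was at 0.338, 0.22 and 0 CPM in members. Of microbial sensors, 12 of 21 in the matrix passed, 2 were higher, 1 was lower and the median log2 fold was 0.05. Cd14, the co-receptor for lipopolysaccharide, had 318, 397 and 208 CPM in members and 67.0, 91.4 and 41.3 in Aqp1-high cells. Tmem173, which encodes the DNA-sensing adaptor STING, had 12.9, 12.2 and 16.2 CPM in members and 5.52, 3.02 and 6.60 in Aqp1-high cells. Nlrp6, an inflammasome sensor of the gut lining, was lower at 10.9, 10.8 and 15.3 CPM in members, against 105, 80.5 and 110.2 in Aqp1-high cells.

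Complement was the group with C3 at its head. Of 15 genes, 7 passed, 4 were higher (C3, C4b, Cfi and Cd55), 1 was lower (Cd59a) and the median log2 fold was 1.61. C3 (chromosome 17, 57203970 to 57228136, minus strand), the central component of the cascade, had 1777, 1544 and 1219 CPM in members, 119, 42.4 and 46.7 in Aqp1-high cells and 675, 362 and 502 in intermediate cells. C4b, a component of the classical pathway, had 349.6, 239 and 397 CPM in members and 17.1, 9.66 and 20.1 in Aqp1-high cells. The regulators differed among themselves. Cfi and Cd55, which restrain C3 activation, were 2.40 to 4.25-fold higher in members, whereas Cd59a, which blocks the membrane attack complex, was 3.6 to 4.12-fold lower. Clu, another inhibitor and one of the most abundant genes of all, had 9289.6, 8862 and 9793 CPM in members and 9750.4, 8783 and 13684 in Aqp1-high cells.

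Of the 12 genes of immunoglobulin transport and mucosal peroxide, 7 passed, 5 were higher (Duox2, Duoxa2, Noxo1, Nos2 and Gpx2), 0 were lower and the median log2 fold was 2.04. Duox2, an oxidase that releases hydrogen peroxide at epithelial surfaces, had 477, 403 and 663 CPM in members and 105, 74.9 and 139.7 in Aqp1-high cells. Its maturation factor Duoxa2 had 550.0, 555 and 437 CPM in members and 164, 146 and 80.1 in Aqp1-high cells. Nos2, the inducible nitric oxide synthase, had 66.0, 41.4 and 29.3 CPM in members, 0.251, 0.268 and 0.267 in Aqp1-high cells and 3.20, 2.55 and 2.77 in intermediate cells. Pigr, which carries dimeric immunoglobulin A into bile, was not called, at 2564, 2124 and 2058 CPM in members and 1355, 983 and 1244 in Aqp1-high cells.

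The mucus list split. Of 20 genes, 10 passed, 4 were higher (Tff2, Muc13, Muc20 and Fcgbp) and 2 lower (Muc3 and Muc3a), with a median log2 fold of 0.77. Fcgbp, a mucus-linked protein, had 343, 337 and 328 CPM in members and 119, 122 and 152 in Aqp1-high cells. Muc3, a membrane mucin, had 3.86, 8.53 and 17.3 CPM in members and 229, 202 and 690.4 in Aqp1-high cells, and Muc3a, a near copy annotated beside it on chromosome 5, may share its reads. In iron handling 1 of 9 tested genes was higher, Cp, the ferroxidase ceruloplasmin, at 85.9, 56.4 and 163 CPM in members and 1.76, 1.22 and 7.27 in Aqp1-high cells. Of the tested genes of duct, progenitor and repair type, 5 of 22 were higher (Anxa1, Anxa10, Areg, Cldn4 and Krt23) and 0 lower, with a median log2 fold of 0.73. Areg, a ligand of the epidermal growth factor receptor, had 258, 150.0 and 94.8 CPM in members and 48.2, 54.5 and 14.4 in Aqp1-high cells, and Cldn4, a tight junction protein, 916, 716 and 538 in members and 181, 166 and 42.1 in Aqp1-high cells. Of biliary fate factors, 2 of 14 tested were higher. Sox9, a duct transcription factor, had 283, 201 and 374 CPM in members and 53.2, 47.7 and 35.1 in Aqp1-high cells, and Sox4 261, 190.0 and 134 in members and 33.5, 30.1 and 15.9 in Aqp1-high cells.

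**Figure D4:**
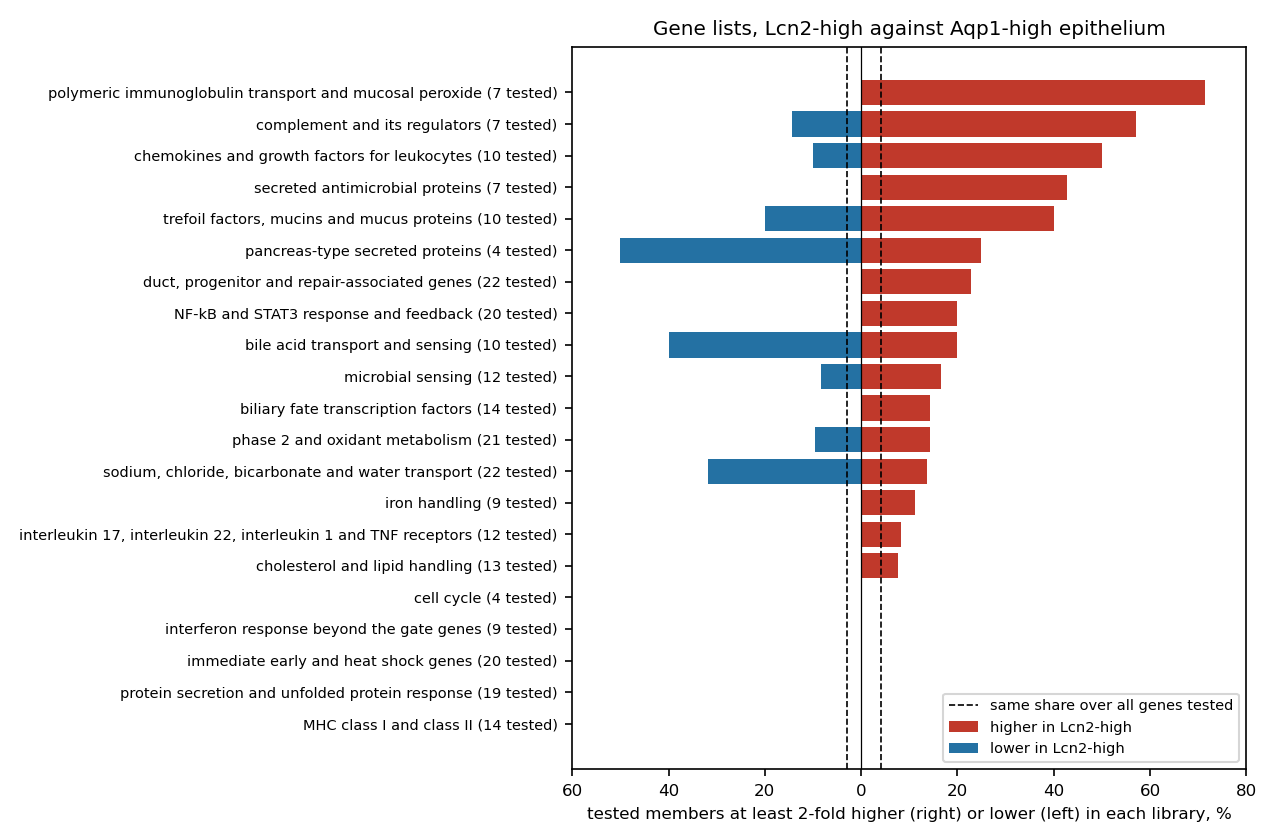
Share of the tested members of each of 21 gene lists that were at least 2-fold higher (right) or lower (left) in Lcn2-high than in Aqp1-high cells in each library; dashed lines mark the same shares over all 7726 genes tested, 4.15% and 2.99%. Peroxide, complement, chemokine and antimicrobial lists stand at the right, transport and bile acid lists reach left, and 5 lists have no called gene. The antimicrobial, chemokine and mucus lists hold given markers, and all lists were chosen with earlier results of these data known.

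Among genes of salt and water transport, more were lower than higher in members. Of 32 listed, 22 passed, 3 were higher (Slc12a2, Cftr and Car12), 7 lower (Slc9a3, Slc26a3, Slc4a4, Car4, Car9, Aqp5 and Aqp8), and the median log2 fold was -0.39. Slc9a3, the apical sodium-proton exchanger of absorptive epithelia, had 6.36, 4.61 and 7.25 CPM in members and 199.95, 98.6 and 170.4 in Aqp1-high cells. Slc26a3, the chloride-bicarbonate exchanger that works beside it in gut, had 5.01, 9.01 and 15.3 CPM in members and 145, 157 and 407 in Aqp1-high cells. Slc4a4, a sodium-bicarbonate cotransporter, had 632, 735 and 1204 CPM in members and 1533, 1572 and 3119 in Aqp1-high cells. Aqp8, another water channel, had 0, 0.366 and 0.558 CPM in members and 19.7, 24.9 and 26.1 in Aqp1-high cells. The 3 higher genes serve chloride secretion in other epithelia or encode a carbonic anhydrase. Slc12a2, which loads cells with chloride, had 256, 206 and 199 CPM in members and 28.2, 32.4 and 29.1 in Aqp1-high cells, and Cftr, the chloride channel of bile ducts, 18.1, 19.4 and 21.5 in members and 4.02, 4.87 and 8.60 in Aqp1-high cells. The sodium pump was even, with Atp1b1 at 1507, 1523 and 1959 CPM in members and 1209, 1234 and 1757 in Aqp1-high cells.

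Bile acid genes were divided. Of 16, 10 passed, 2 were higher (Slco3a1 and Abcc4) and 4 lower (Abcb1a, Slco2a1, Nr0b2 and Nr1i2), with a median log2 fold of 0.23. Slco3a1, an organic anion transporter, had 54.7, 56.7 and 53.8 CPM in members and 2.89, 3.50 and 5.33 in Aqp1-high cells. Abcb1a, an export pump for drugs, had 13.4, 20.5 and 19.2 CPM in members and 165, 180.2 and 258 in Aqp1-high cells. Slc10a2, the apical bile acid uptake transporter, was not called, at 225, 232 and 233 CPM in members and 147, 154 and 205 in Aqp1-high cells. Nr0b2, the target of the bile acid receptor, was scarce at 2.0, 2.75 and 9.48 CPM in members, against 17.7, 12.7 and 30.5 in Aqp1-high cells.

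The gene furthest below Aqp1-high cells was Ctrb1, the pancreatic protease precursor chymotrypsinogen B, with 22, 53.3 and 22.9 CPM in members, 2179.8, 1811 and 1265 in Aqp1-high cells and 273, 482 and 127 in intermediate cells. Of 21 pancreas-type secreted proteins 4 passed, with Ctrb1 and Reg1 lower and Spink4 higher. Cpa1, Cela2a, Pnlip and Amy2a5, which define acinar cells, were at 0 UMIs in members. Reg1, a pancreatic lectin, had 262, 86.5 and 121 CPM in members and 1297, 952 and 969.7 in Aqp1-high cells. Spink4, a protease inhibitor of goblet cells, had 6094, 6306 and 3497 CPM in members and 2201, 1725 and 1302 in Aqp1-high cells. Of 21 tested genes of phase 2 and oxidant metabolism, 3 were higher (Gsto1, Ces1d and Ces1g) and 2 lower. Mt1, a metallothionein, was lower at 2073, 2358 and 1614 CPM in members, against 5163, 4883 and 4839 in Aqp1-high cells, and Aldh1a1, a retinal dehydrogenase whose neighbour Aldh1a7 is a close copy, at 27.7, 34.2 and 63.6 in members, against 116, 128 and 393 in Aqp1-high cells. The signalling protein Shh, also among the 15 lowest, had 5.14, 14.3 and 18.1 CPM in members and 169.6, 109.8 and 281 in Aqp1-high cells.

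Lists with 0 called genes in either direction were MHC (14 tested), protein secretion and unfolded protein response (19), immediate early and heat shock genes (20), interferon response beyond the genes of the choice (9) and cell cycle (4). Their median log2 folds were 0.02, 0.09, -0.78, 0.29 and 0.14. Both populations were chosen under the interferon limit, so the lack of called interferon genes follows in part from the choice. The immediate early median lay below that of all genes, and Fos had 1447, 1267 and 2401 CPM in members and 4535, 3143 and 3026 in Aqp1-high cells, a gap that was narrow in library 3. In cholesterol and lipid handling 1 of 13 was higher, Fabp5, an epidermal fatty acid binding protein, at 142, 136 and 81.2 CPM in members and 24.9, 21.5 and 15 in Aqp1-high cells.

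Intermediate cells stood closer to members. Of 7592 genes tested between them, 38 (0.501%) were at least 2-fold higher in members in each library and 54 (0.711%) at least 2-fold lower. Leaving out a library admits more genes by construction, since 2-fold is then asked of fewer libraries. There were then 60 higher genes without library 1 and 65 without library 3, and 82 lower genes without library 1. Ranked at 50 CPM or more as before, the 10 furthest above were Cxcl5, Reg3g, Fabp5, Cp, Gabrp, Lrg1, Tnfaip2, Ltf, Ccl20 and C3. Lrg1, a secreted glycoprotein of the acute phase, had 519, 463 and 388 CPM in members and 193, 149 and 120.2 in intermediate cells. Nos2, below 50 CPM in libraries 2 and 3 and so not ranked, was 20.6, 16.3 and 10.6-fold higher in members. Noxo1, an organiser of NADPH oxidases, was 3.22, 3.05 and 2.31-fold higher. Of the antimicrobial list, Ltf and Reg3g, both given markers, were higher among 7 tested.

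Most lists with called genes against Aqp1-high cells had fewer or none against intermediate cells. The shares over all tested genes were smaller here too, at 0.501% higher and 0.711% lower. Counts against intermediate cells are to be read against these shares, and a list with 0 called genes lies near them. Of these lists, those with 0 called genes here were duct, progenitor and repair genes (22 tested), biliary fate factors (14), microbial sensors (12), cytokine receptors (12) and phase 2 and oxidant metabolism (22). MHC (14), protein secretion (19), immediate early (20) and cell cycle (4) lists again had 0. The interferon list had Ifi27l2a lower among 10 tested. Of complement genes, 9 passed, C3 was higher and C1s1, a protease of the classical pathway, and Serping1, its inhibitor, were lower. Serping1 had 7.58, 4.72 and 9.21 CPM in members and 23.3, 18.3 and 33.3 in intermediate cells. Among 20 NF-kB and STAT3 response genes Tnfaip2 was higher and 0 were lower, and among 10 chemokines Cxcl5 and Ccl20 were higher and Il18 lower. Nos2 and Noxo1 were the called genes of 7 for immunoglobulin transport and peroxide, Cp that of 9 for iron and Fabp5 that of 13 for lipids, all higher. Of 21 transport genes 0 were higher and 4 lower (Slc9a3, Slc26a3, Car4 and Aqp5). Of 8 bile acid genes Slco3a1 was higher and Abcb1a lower, and of 4 pancreas-type genes Ctrb1 and Reg1 were lower.

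Of the mucus list, Muc13 was higher and Muc3, Muc6, Tff1, Tff3 and Agr2 were lower in members than in intermediate cells, among 11 tested. Values of the last 4 were chosen after they were seen. Tff3, a trefoil peptide of goblet cells, had 189.6, 337 and 425 CPM in members and 644, 964 and 869 in intermediate cells. Muc6, a gel-forming mucin of deep glands, had 0.135, 0.0366 and 5.02 CPM in members and 18.5, 10.2 and 212 in intermediate cells, most of it in library 3. Agr2, which folds mucins, had 11.2, 5.13 and 10.6 CPM in members and 64.0, 10.4 and 272 in intermediate cells. The 54 lower genes included Msln, Upk1b and Upk3b of the mesothelial list and Dcn of the fibroblast list. Mesothelial markers summed to 19.2 to 27.8 CPM in members and 81.5 to 237 in intermediate cells, and fibroblast markers to 167 to 498 in members and 233 to 776 in intermediate cells. Their part in these differences was not tested.

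Members also varied among themselves. Among 1274 genes with a mean of at least 0.3 UMIs per thinned member, the 10 most variable were Chil4, Malat1, Spp1, Reg3g, Gm42418, Spink4, mt-Co1, Ly6d, Dmbt1 and Tff2. Their variance was 4.81 to 11.7 times the mean in the library where it was lowest, against a median of 1.02. Chil4 had 0 UMIs in 26.8%, 54.3% and 49.1% of thinned members and a 90th percentile of 45, 10 and 8.4 UMIs. Spp1, the matrix protein osteopontin, was absent in 18.2%, 25.8% and 25.1% of them. Across members, Spp1 ran against Tff2, with Pearson r of -0.22, -0.19 and -0.23 over 456, 1913 and 167 cells, and Tff2 ran with Tff3 at 0.25, 0.34 and 0.37. Spink4 and Dmbt1 had r of 0.46, 0.40 and 0.13. Cells of a library share its depth and free RNA, and these correlations are weak and given as a description.

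Members were also split by their own level of Lcn2, a gene of the choice. The split points, 2000 and 4000 CPM, were chosen after values were seen, so what follows is a description. Members with at least 4000 CPM of Lcn2 (227, 1136 and 35 cells) were set against those with 1000 to 2000 CPM (96, 302 and 59 cells). Of 2706 genes, 4 (0.148%) were at least 2-fold higher in the upper range in each library and 0 at least 2-fold lower. The 4 were Cp (4.69, 4.94 and 5.15-fold), Fabp5 (2.70, 2.87 and 4.57-fold), Reg3g (2.34, 4.37 and 6.18-fold) and Pdgfb, a growth factor for mesenchymal cells (2.45, 2.28 and 3.24-fold). Cxcl5 was 5.69, 3.36 and 1.69-fold higher. Ltf was 1.63, 1.36 and 1.33-fold higher and C3 1.38, 1.88 and 1.47-fold. Tff2 was 1.04, 0.808 and 1.10 times its level in the lower range. Chil4 was 3.23, 1.75 and 4.29-fold lower in the upper range, and Tff3 1.05, 2.90 and 2.37-fold lower. Pdgfb and Tff3 were chosen after their values were seen.

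**Figure D5:**
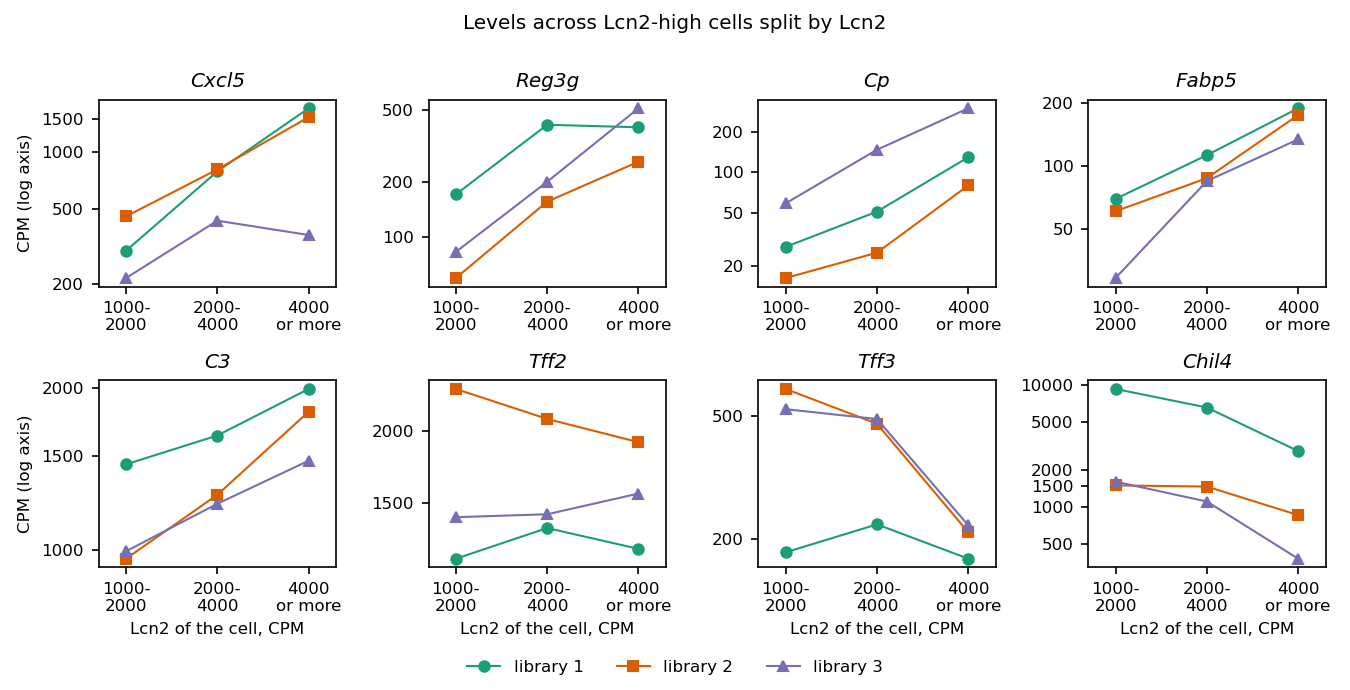
Summed CPM (log axis) of 8 genes in Lcn2-high cells, one line per library. The split at 2000 and 4000 CPM of Lcn2 was chosen after values were seen. Reg3g, Cp and Fabp5 are higher at 4000 CPM or more than at 1000 to 2000 CPM in each library, Chil4 is lower, and Tff2 differs by at most 1.24-fold between these ranges.

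Between libraries, members of library 3 differed most. Among 3446 genes, 62 (1.80%) were at least 2-fold higher in members of library 3 than in those of both other libraries and 54 (1.57%) at least 2-fold lower, against at most 3 in either direction for libraries 1 and 2. Of these, 29 of the 62 and 30 of the 54 were at least 2-fold apart in the same direction in Aqp1-high cells too. The same share over all 3446 genes is not given here, so how far this overlap exceeds it is left unread. Socs3, Hspa1b, Nupr1 and Wfdc18 were chosen after their values were seen. Socs3, a feedback inhibitor of STAT3, had 44.7, 35.8 and 239 CPM in members and 153, 95.5 and 249.7 in Aqp1-high cells. The heat shock gene Hspa1b had 204, 154 and 805 CPM in members and 357, 203 and 1194 in Aqp1-high cells. Gm42418, which overlaps a ribosomal RNA repeat, had 27732, 17812 and 2339 CPM in members and 22219, 13595 and 2214 in Aqp1-high cells. Nupr1, a stress-induced nuclear protein, had 893, 928 and 122 CPM in members and 137, 185 and 15.7 in Aqp1-high cells. Ccl20, Cxcl2 and Cxcl5 of the chemokine list were lower in members of library 3 than of libraries 1 and 2, with Ccl20 at 195, 191 and 58.6 CPM. Fibroblast genes moved with the difference, with Col1a1 at 13.9, 10.3 and 50.2 CPM in members and 16.3, 6.23 and 42.0 in Aqp1-high cells, and Dcn at 33.1, 40.5 and 131 in members and 77.2, 27.7 and 132 in Aqp1-high cells. The 7 fibroblast markers summed to 178, 167 and 498 CPM in members and 206, 144 and 453 in Aqp1-high cells, and their part in the difference was not tested. In library 1, Chil4 stood out at 5243 CPM in members, against 1109 and 1063 in libraries 2 and 3. Wfdc18, a protease inhibitor-like protein, was lowest in members of library 2, with 82.0, 21.2 and 82.3 CPM. Library, group and handling cannot be told apart here.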

How the data were processed

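The deposited matrix of the whole series holds raw UMI counts per gene and barcode for 31053 genes and 27700 barcodes, which the authors made with Cell Ranger (version 6.1.1 in the file headers) on build GRCm38 (mm10), per the submitters' processing notes. Handling of reads that fit several genes is not given in the sources used here, and 0 per-sample columns were left unused. The barcode suffix gives the library, and no library was assigned to a group. Members and gene lists were chosen with earlier results of these data known.

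Cells were chosen by the limits given with the results. UMIs were summed per population and library and divided by their total (CPM). A gene was tested at 10 CPM and 20 UMIs in the higher population of each library and called at 2-fold in each library. A count of 0 was set to 3 UMIs for folds. Named were the given markers, the 15 genes furthest above and below Aqp1-high cells by their smallest library fold at 50 CPM, the 10 furthest above intermediate cells, the 10 most variable among members, and of each of 21 lists the 3 most abundant and those called against Aqp1-high cells. One gene is not reported here and was left out of its list. Collagen-high cells had at least 8000 CPM of Col1a2 and Col3a1 and under 1000 CPM of the epithelial genes. Thinning drew 3000 UMIs per cell with a fixed seed. Positions came from GENCODE M21, which held 31011 of the gene identifiers. Intervals are exact, at 95%, and cover counting error only. The procedure was tested on simulated data. Doublets were kept. Scrublet in scanpy 1.11.5 marked 1024 of 27700 barcodes, 77 of them members, and leaving them out was an alternative. Python 3.11.15, numpy 2.4.6, scipy 1.17.1 and pandas 2.3.3 were used.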

Additional observations from a re-analysis of the deposited data

How the results depend on the processing

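The share of members in gated epithelium, 27.5% over all libraries, moved beyond its counting interval to 22.6% with at least 2000 CPM of Lcn2, 12.1% with at least 5000 CPM, 25.2% with Aqp1 under 100 CPM, 29.1% with a mitochondrial limit of 10%, 23.4% without library 2 and 29.5% without library 3. The 321 genes higher than in Aqp1-high cells became 499 without a CPM minimum, 598 at 1.5-fold, 137 at 4-fold and 190 in cells thinned to 3000 UMIs, where 6440 genes were tested. The 231 lower genes became 405 without a CPM minimum, 428 at 1.5-fold and 72 at 4-fold. The 38 genes higher than in intermediate cells became 18 with at least 5000 CPM of Lcn2, 64 with an Aqp1 limit of 600 CPM, 60 without library 1, 65 without library 3, 60 without a CPM minimum, 110 at 1.5-fold and 7 at 4-fold. The 54 lower genes became 28 with at least 8000 CPM of the epithelial genes, 82 without library 1, 172 without a CPM minimum, 108 at 1.5-fold and 12 at 4-fold. A smaller fold, no minimum or 1 library fewer admits more genes by construction. The cause of the other moves was not tested. In the other alternatives the counts stayed within 1.5 times, among them leaving out doublets (324 and 233 against Aqp1-high cells) and totals without Gm42418, AY036118 and Lars2 (327 and 231), the last chosen after seeing the data. Of 83 named genes called against Aqp1-high cells, 0 changed direction in 19 alternatives. Some of these alternatives could not change a direction. Another CPM minimum or fold limit leaves every fold as it is, though its pairs are counted below. Leaving out a library cannot reverse a gene called in each library. The fold moved by over 1.5 times in 40 of 1577 pairs of one of the 83 genes and an alternative, over 26 genes. With at least 5000 CPM of Lcn2, the log2 fold of Chil4 was 3.12, against 4.96, that of Nos2 5.85, against 7.36, and that of Reg1 -4.27, against -2.92. Without library 3 that of Chil4 was 4.16 and that of Car4 -3.31, against -3.92, and without library 1 that of Car4 was -4.59. No paired analysis was possible because these results come from no test; folds were taken within each library. Library 3 limits what can be seen in members, with 167 of them and 3584628 UMIs in all.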

Other observations

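The cells high in both Lcn2 and Aqp1, which entered no comparison, numbered 4, 108 and 7 in libraries 1, 2 and 3. In library 2, which held most of them, they had a median of 24624 UMIs, against 12006 in Lcn2-high and 12824 in Aqp1-high cells. Their summed levels in library 2 were 683 CPM of Ltf, 603 of Cxcl5, 141 of Reg3g and 1237 of Tff2. For Ltf and Cxcl5 these lie between the levels of Lcn2-high cells (1288 and 1181 CPM) and Aqp1-high cells (29.0 and 13.5 CPM) of that library.

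The 845 interferon-high cells of library 2, also left out, had 1135 CPM of Lcn2, 663 of Ltf, 156 of Cxcl5, 42.8 of Reg3g and 1966 of Tff2, with 364 CPM of Aqp1.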
